A study of Mus musculus with 21 samples.

Results

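The genes described here encode splicing factors and heterogeneous nuclear ribonucleoproteins (hnRNPs), the proteins with which a nucleus removes introns from its new transcripts. They were chosen by symbol, as the genes named Snrp, Sf3a or Sf3b, Prpf, Srsf and Hnrnp, with earlier results of these data known. Pseudogene and opposite-strand symbols were left out, and a mean of at least 10 counts over the 21 libraries was required. Of 40853 genes in the count table, 65 had such a symbol and 62 passed the minimum: 10 Snrp, 9 Sf3, 13 Prpf, 10 Srsf and 20 Hnrnp genes. The remaining 3 were Snrpf, with a mean of 3.62 counts, Snrpn, with 1.62 counts, and Srsf12, with 0.857 counts, whereas the lowest gene above the minimum, Snrpg, had a mean of 205.8 counts. Snrpf encodes a protein of the Sm ring. Of its canonical transcript, 82.0% is overlapped by exons of genes on the opposite strand, and whether this touches its count was not tested.

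Pre-mRNA is spliced by small nuclear ribonucleoproteins (snRNPs), which are RNA and protein particles that assemble on each intron in turn. The Snrp genes encode the Sm proteins, which form a ring around the snRNA, and proteins particular to the U1 and U2 particles, which recognize the ends of the intron and the branch point. The SF3A and SF3B complexes, encoded by the Sf3 genes, belong to the U2 particle and hold it on the branch point. Several Prpf genes encode proteins of the U4/U6.U5 tri-snRNP, which brings the catalytic centre, and others act in its activation or in the U1 particle. SR proteins (Srsf) mostly bind exons and favour their inclusion, while hnRNPs (Hnrnp) coat the transcript and often favour skipping. Skeletal muscle relies on regulated splicing for the isoforms of its contractile proteins.

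RNA came from the medial belly of the gastrocnemius, a calf muscle, of female C57BL/6NJ mice that were 10 weeks old at the start, with 1 poly(A)-selected library per mouse and 7 mice in each group. Mice of the Inactive group stayed in standard cages and were never trained. The Active group ran on a treadmill for 6 weeks, on 5 days a week in sessions of up to 40 min, of which the part after a warm-up was at about 70% of maximal speed, and the Activity Reduction group trained in the same way for 4 weeks and was then inactive for 2 weeks. All mice, the untrained ones included, had performed a last maximal running test 48 to 72 h before the fasted animals were sampled.

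The libraries held between 38482455 and 59785132 counts on genes, and every Active library (at most 49211581) held fewer than every Inactive library (at least 49284630). Depth and training group therefore cannot be told apart in that comparison. The 10 skeletal muscle markers summed to between 200610 and 238087 CPM (counts scaled to a common library total) in every library. A list of 24 liver genes was also counted in all of them and divided the libraries into 8 with more (772 to 2329 CPM) and 13 with fewer (165 to 358 CPM) of these transcripts. The 8 were 5 Active, 2 Activity Reduction and 1 Inactive libraries. They were also the first 8 samples in the order of the sample labels, and the 13 were all later ones. Liver transcripts and sample order therefore cannot be told apart, and what the order stands for is not given. Counts of members below 0 and of members at an unadjusted p-value under 0.05 are also given with this division as a covariate. They are given within the 13 libraries as well, of which 2 were Active. A measured difference in a muscle sample can come from fewer cells of a type or from less RNA per cell, and these cannot be told apart.

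RefSeq promoter windows (build GRCm38.p6, 250 bases before to 50 after the start) were matched by symbol for 54 of the 62 members, with 71 windows between them. Their median G+C content was 60.3%, against 52.7% over all 32851 windows, which include those of genes not expressed in muscle, and the difference was not tested. The letters CCGGAAG, the core of sites for ETS factors, were found on either strand in 35.2% of the member windows and in 8.86% of all windows. GGGCGG, the letters bound by Sp factors, was in 67.6% of the member windows and 35.7% of all. CCAAT, known for the factor NF-Y, was in 47.9% against 37.4% of windows. The E-box letters CACGTG were in 15.5% against 7.15%. TATAAA, by contrast, was in 8.45% of the member windows and 13.6% of all. None of these motifs contains another, and a match is a description of the letters and not of a bound site. The windows below belong to the members with the smallest p-value of each comparison among those with 1 or 2 windows, Hnrnph2, Sf3b6 and Snrpa, and capitals mark every match to these 5 motifs on either strand. Each sequence runs 5′ to 3′ on the strand of its gene and also has 1 exact match in GRCm39, the build of the counts.
Hnrnph2, GRCm38.p6 chrX:134600929-134601228, plus strand: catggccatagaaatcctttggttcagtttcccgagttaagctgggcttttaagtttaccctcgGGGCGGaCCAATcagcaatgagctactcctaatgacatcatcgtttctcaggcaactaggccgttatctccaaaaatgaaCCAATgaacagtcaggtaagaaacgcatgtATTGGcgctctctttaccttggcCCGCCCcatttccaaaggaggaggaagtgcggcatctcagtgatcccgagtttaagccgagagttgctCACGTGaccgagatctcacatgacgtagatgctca
Sf3b6, GRCm38.p6 chr12:4817358-4817657, plus strand: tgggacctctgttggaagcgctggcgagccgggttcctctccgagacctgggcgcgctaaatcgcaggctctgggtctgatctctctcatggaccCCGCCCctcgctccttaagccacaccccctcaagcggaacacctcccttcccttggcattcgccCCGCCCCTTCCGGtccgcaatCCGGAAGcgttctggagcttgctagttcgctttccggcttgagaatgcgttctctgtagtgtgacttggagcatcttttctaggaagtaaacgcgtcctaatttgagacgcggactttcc
Snrpa, first start, GRCm38.p6 chr7:27196222-27196521, minus strand: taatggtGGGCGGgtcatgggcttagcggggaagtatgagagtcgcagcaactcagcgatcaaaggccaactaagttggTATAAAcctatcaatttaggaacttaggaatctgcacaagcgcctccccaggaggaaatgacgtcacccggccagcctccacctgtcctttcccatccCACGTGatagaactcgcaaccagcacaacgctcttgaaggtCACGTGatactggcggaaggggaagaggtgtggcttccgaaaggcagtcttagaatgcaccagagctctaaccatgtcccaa
Snrpa, second start, GRCm38.p6 chr7:27195711-27196010, minus strand: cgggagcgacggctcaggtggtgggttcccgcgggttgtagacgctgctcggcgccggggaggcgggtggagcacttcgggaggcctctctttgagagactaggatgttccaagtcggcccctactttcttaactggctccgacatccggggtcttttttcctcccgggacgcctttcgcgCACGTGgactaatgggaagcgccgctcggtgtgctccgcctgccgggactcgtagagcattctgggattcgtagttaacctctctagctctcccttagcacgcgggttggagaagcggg

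The 3 genes differ in these windows. Hnrnph2, on chromosome X, had 3 matches to CCAAT, 2 to GGGCGG and 1 to CACGTG, and Sf3b6, on chromosome 12, had 2 matches to CCGGAAG and 2 to GGGCGG. Snrpa, on chromosome 7, had 2 matches to CACGTG, 1 to GGGCGG and 1 to TATAAA at its first start and 1 match to CACGTG at its second.

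All 62 members were expressed in the muscle at more than 1 CPM per kb of their canonical transcript, and 61 lay above the median of 14948 tested genes with a known length (2.46 CPM per kb). Hnrnpa2b1, an hnRNP that also takes part in RNA transport, was the highest with 163.5 CPM per kb. It was followed by Snrpb, of the Sm ring, with 106.7, the SR protein gene Srsf5 with 92.0, Prpf19, whose ubiquitin ligase activates the spliceosome, with 77.8, and Hnrnpa1 with 65.4 CPM per kb. Of the Hnrnpa2b1 transcript, 46.0% is overlapped on the opposite strand, by Gm67572 and Cbx3, and Hnrnpa1 has 8 near-identical transcripts at other genes, 7 of them pseudogenes. Whether reads of such pairs were separated depends on the strand setting and on how repeated alignments were counted, which are not given in the sources used here.

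Levels spanned 113-fold between Hnrnpa2b1 and the lowest member, Hnrnpr, at 1.44 CPM per kb. The canonical transcript of Hnrnpr is annotated with 21475 bases, far above the members' median of 3041, which lowers its value per kb. Within the families the span was narrowest for Sf3, 9.52-fold from Sf3b2 (27.1 CPM per kb) to Sf3a1 (2.84). It was 24.8-fold for Srsf, from Srsf5 to Srsf4 (3.72), 27.5-fold for Snrp, from Snrpb to Snrpg (3.87), and 29.7-fold for Prpf, from Prpf19 to Prpf31 (2.62). The second member of each family was Snrpc, a U1 protein, with 37.1 CPM per kb, Sf3b1, which contacts the branch point, with 19.4, Prpf8, at the catalytic centre, with 22.0, and Srsf2 with 30.4. Neighbours in this order are often not separated, since Srsf2 and Hnrnpa3 (29.7 CPM per kb) differed by less than the range of either gene over the libraries. Srsf2 (82.1%), Srsf9 (71.7%) and Srsf4 (65.3%) are overlapped over most of the transcript on the opposite strand, so their levels are uncertain.

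**Figure D1:**
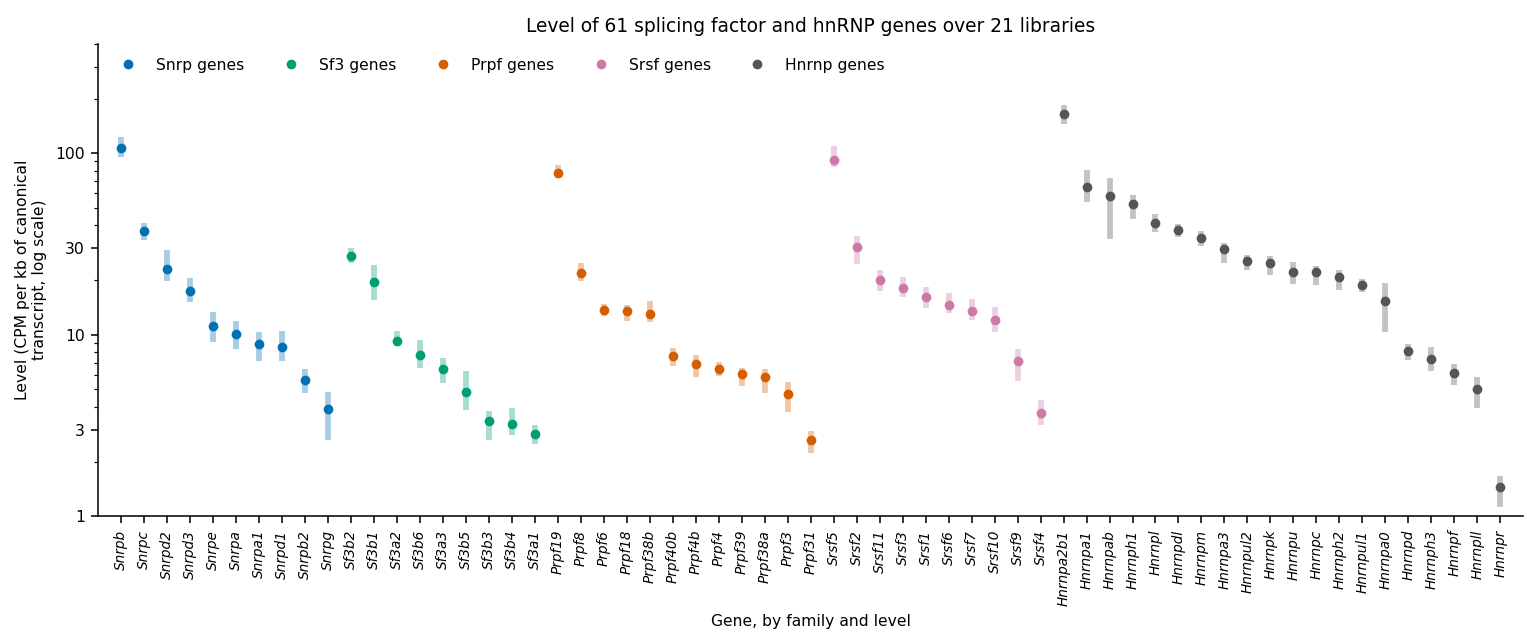
Level of 61 of the 62 members, in CPM per kb of the canonical transcript on a log scale, ordered within the 5 families. Points are means over the 21 libraries and bars run from the lowest to the highest library; in each family 1 or a few genes stand above the rest, and Hnrnpr is the lowest at 1.44.

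Expression differed little between mice of the same group. The median within-group coefficient of variation of the members was 6.72%, against 13.4% over all 16129 genes tested. The genes were not matched for level, and 61 members lay above the median level of tested genes with a known length. By family the median was 5.22% for Prpf, 5.43% for Hnrnp, 6.98% for Srsf, 7.00% for Sf3 and 9.29% for Snrp. Hnrnpdl varied the least, with 2.93%, and Snrpg (17.8%) and Hnrnpab (16.5%) the most. For Snrpg, which has the fewest counts of the members, counting error alone gives 6.97%.

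No member was called differentially expressed in any comparison, but few or none of all genes were, so this does not set the members apart. With the quasi-likelihood test of edgeR, adjusted over 16129 genes by the Benjamini-Hochberg method, a gene was called at an adjusted p-value under 0.05 with a log2 fold change above 0.25 in either direction. Of the members, 0 were called in Active against Inactive (0% of all genes), 0 in Activity Reduction against Inactive (0.0124%) and 0 in Activity Reduction against Active (0%). DESeq2 on the 3 groups also called 0 members in each comparison, against 0.366%, 0.13% and 0.707% of all genes. For 33 of the 62 members it gave no adjusted p-value in Activity Reduction against Inactive, Sf3b6, Prpf3, Hnrnpa0 and Hnrnpr among them, which could therefore not be called. DESeq2 on the 2 groups compared gave a value for all 62 and called 0, against 72, 42 and 129 of all 16129 genes. It gave Hnrnph2 in Active against Inactive and Hnrnpll in Activity Reduction against Active adjusted p-values under 0.05, below the fold change asked. The 3 comparisons share groups of mice, so that a low or high value in a group enters 2 of them.

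The estimates were precise enough to bound most members. The standard error of the members' log2 fold changes was between 0.029 and 0.14, with a median of 0.053. The 95% interval lay within 0.25 in either direction for 52 members in Active against Inactive, where 40.8% of all genes did so, for 51 in Activity Reduction against Inactive (41.5%) and for 50 in Activity Reduction against Active (39.4%). In all 3 comparisons it did so for 45 members. All genes were again not matched to the members for level. The widest interval in Active against Inactive was that of Snrpg, which reached -0.42. In Activity Reduction against Inactive the intervals reached from -0.40 for Snrpg to 0.41 for Hnrnpa0, and in Activity Reduction against Active they reached 0.40 for Hnrnpab. No member separated the groups without overlap in any comparison. Over all genes the share without overlap was 0.211% lower and 0.0434% higher in Active against Inactive, 0.062% and 0.0558% in Activity Reduction against Inactive, and 0.112% and 0.18% in Activity Reduction against Active.

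**Figure D2:**
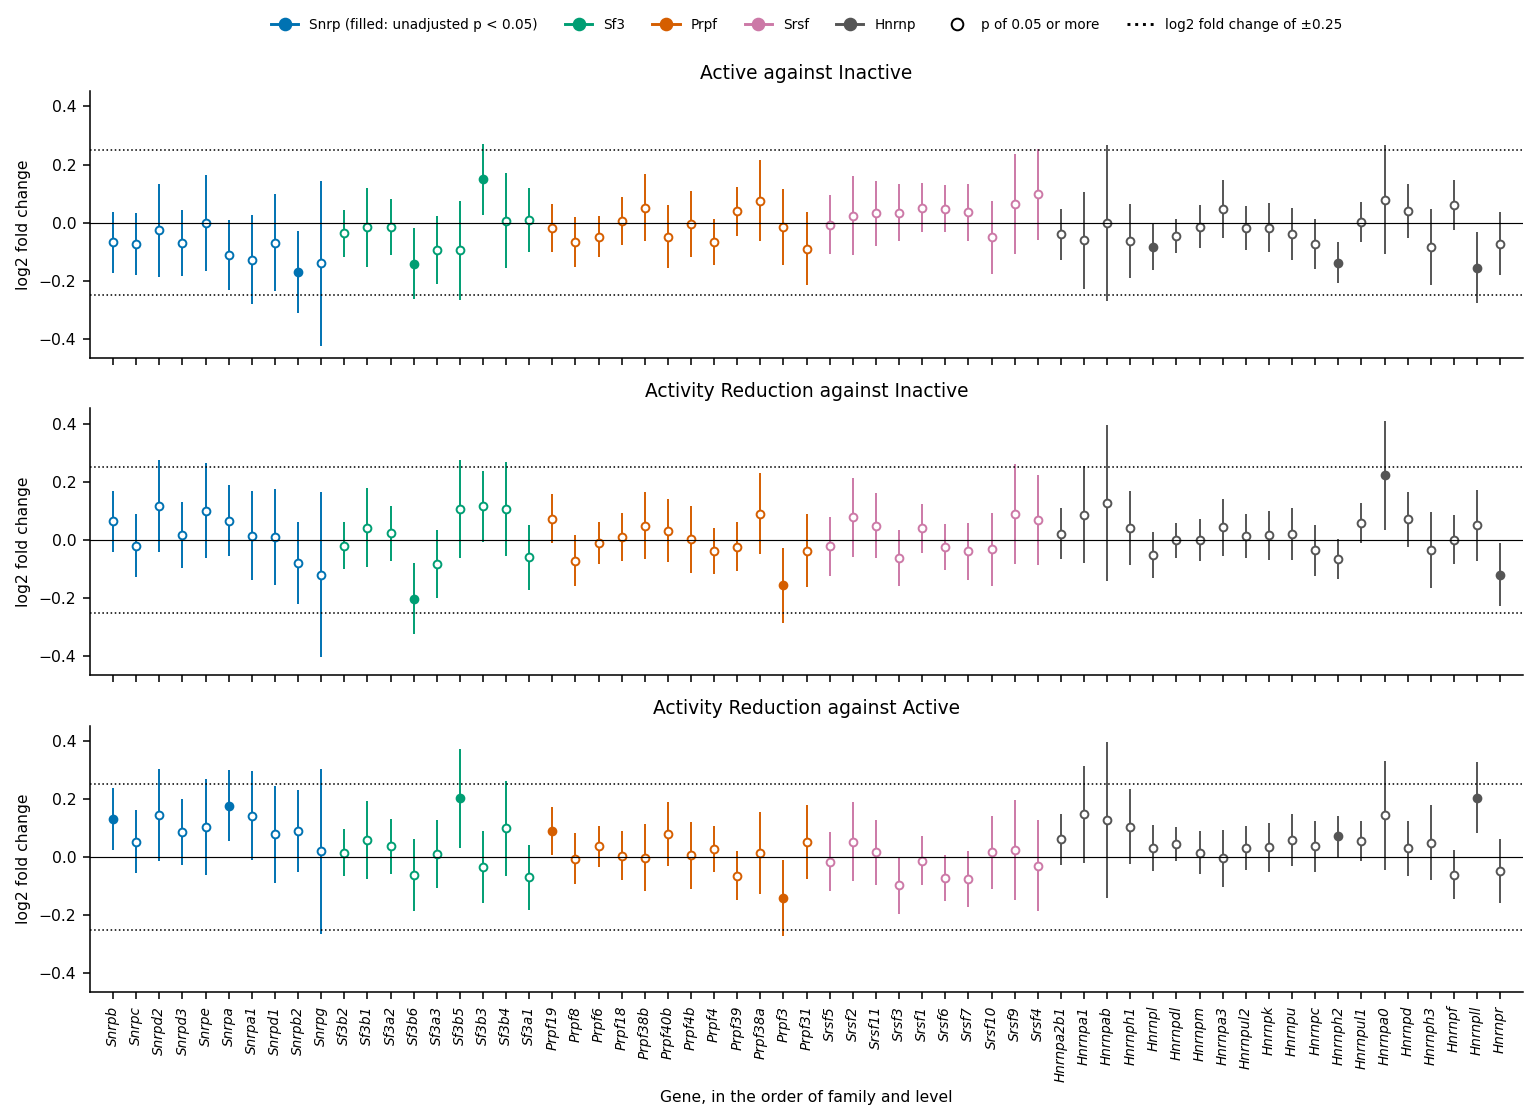
Log2 fold change of 61 of the 62 members in the 3 comparisons, with its 95% interval from edgeR; filled points have an unadjusted p-value under 0.05 and dotted lines mark 0.25 in either direction. No point lies beyond the dotted lines, and the 10 Snrp genes lie below 0 in the upper panel and above 0 in the lower panel, which share the Active mice.

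The comparison of the Active with the Inactive group asks how muscle of mice in regular training differs from that of mice never trained. Members tended to slightly lower values in the Active group, with 42 of 62 below 0 where 48.4% of all genes were, and a median log2 fold change of -0.022 against 0.0052 over all genes. At an unadjusted p-value under 0.05, 5 members were lower (4.69% of all genes) and 1 was higher (6.18%). All 10 Snrp genes had estimates below 0, with a median of -0.072 and a range from -0.17 (Snrpb2) to -0.0018 (Snrpe), and 15 of 20 Hnrnp genes did, with a median of -0.039. In contrast, 8 of 10 Srsf genes were above 0, with a median of 0.035. The medians were -0.016 for Sf3 and -0.017 for Prpf, and the 5 Prpf genes of the tri-snRNP (Prpf3, Prpf4, Prpf6, Prpf8 and Prpf31) were all below 0, with a median of -0.066, and were so in both liver settings.

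Liver transcripts, depth and other summed levels moved with this comparison. The liver list had a median of 1709 CPM in the Active and 268 CPM in the Inactive group. In the same order the medians were 343 and 291 CPM for 10 fibroblast and tendon markers, 55.7 and 40.5 CPM for 10 macrophage markers, 2337 and 2997 CPM for 2 nuclear RNAs and 5128 and 5754 CPM for mitochondrial transcripts, with overlapping ranges and no marker at 0. Their part in the members' values was not tested. With the liver division as a covariate, the members below 0 were 38 and their median was -0.016, and 8 of 10 Snrp genes were below 0, with a median of -0.028. In the 13 libraries with fewer liver transcripts, 33 members were below 0, among them 6 Snrp genes (median -0.035) and 10 Hnrnp genes (median -2.83e-05, with 14 below 0 under the covariate), while 8 Srsf genes were above 0 in both settings. The members lower at an unadjusted p-value under 0.05 were 2 in either setting, and those higher were 2 with the covariate and 1 in the 13 libraries. Of all 16129 genes, 689 were lower and 684 higher with the covariate, and 496 and 508 in the 13 libraries.

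Hnrnph2, which binds runs of G near splice sites and closely resembles Hnrnph1, had the smallest p-value of the members. Its normalized count was between 2659 and 2796 (median 2718) in the Inactive, between 2268 and 2664 (median 2508) in the Active and between 2443 and 2669 (median 2610) in the Activity Reduction group. A single Active mouse reached above the lowest Inactive mouse. The log2 fold change was -0.14 (SE 0.034), with an edgeR p-value of 0.00049 and an adjusted p-value of 0.16, and the two-sided exact permutation test over the 14 mice gave p = 0.0012. DESeq2 gave an adjusted p-value of 0.027 for the same difference, whose size was under the fold change asked of a call. It was -0.11 with the liver covariate and -0.10 in the 13 libraries. A pseudogene, Gm8775, matches 53.2% of the transcript at 97.8% identity, so some reads could have been shared.

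The other 7 members with the smallest p-values were of several families. Hnrnpll, a regulator of exon skipping best known from lymphocytes, was between 1100 and 1357 (median 1166) in the Inactive and between 972 and 1188 (median 1079) in the Active group, a log2 fold change of -0.16 (SE 0.059, adjusted p = 0.36). Most Active mice lay among or under the lower Inactive mice, and the difference was -0.19 with the liver covariate and -0.042 in the 13 libraries. Snrpb2, a U2 protein that binds the U2 RNA, was between 610 and 798 (median 741) in the Inactive and between 576 and 717 (median 640) in the Active group, with a log2 fold change of -0.17 (SE 0.068, adjusted p = 0.38). The groups overlapped over most of the Active range because of 1 low Inactive mouse, and the value was -0.099 with the liver covariate and -0.15 in the 13 libraries.

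Sf3b3, a scaffold subunit of SF3B, was the exception in direction. Its normalized count was between 885 and 1116 (median 1080) in the Inactive and between 1006 and 1209 (median 1179) in the Active group, a log2 fold change of 0.15 (SE 0.059, adjusted p = 0.38) in edgeR's test. Of the Active mice, 6 lay above every Inactive mouse and 1 lay among them. Sf3b6, the SF3B subunit at the branch point adenosine, had a log2 fold change of -0.14 (SE 0.059, adjusted p = 0.41), Hnrnpl, which binds CA repeats, one of -0.084 (SE 0.038, adjusted p = 0.44), Snrpa one of -0.11 (SE 0.059, adjusted p = 0.50) and Hnrnpc, which binds runs of U, one of -0.074 (SE 0.042, adjusted p = 0.53). Among the highest genes of each family, the estimates were -0.040 for Hnrnpa2b1, -0.067 for Snrpb, -0.0068 for Srsf5, -0.017 for Prpf19 and -0.036 for Sf3b2, each with an interval within 0.25 of 0.

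The comparison of the Activity Reduction with the Inactive group asks what remained of training, or followed its end, after 2 weeks without running. The families were nearly level. Of the members, 25 were below 0 (47.8% of all genes), the median log2 fold change was 0.014 against 0.0057 over all genes, and at an unadjusted p-value under 0.05, 3 were lower (3.54%) and 1 was higher (4.19%). The medians were 0.016 for Snrp, 0.023 for Sf3, 0.00079 for Prpf, 0.0088 for Srsf and 0.019 for Hnrnp. Within the families, the 5 hnRNP A/B genes were all above 0 (median 0.087, from 0.021 to 0.22). The 5 tri-snRNP Prpf genes were all below 0 (median -0.038, from -0.16 to -0.011). The 3 hnRNP U genes were also above 0. The other subgroups held genes on both sides, for example with 4 of 8 SR protein genes and 2 of 4 hnRNP F/H genes above 0. The liver list had a median of 337 CPM in the Activity Reduction group. With the liver covariate 26 members and in the 13 libraries 25 members were below 0. The hnRNP A/B and tri-snRNP genes all kept their side in both settings, which use the same mice and are not separate evidence. At an unadjusted p-value under 0.05, 3 were lower in both settings, and 1 was higher with the covariate and 4 in the 13 libraries. Of all 16129 genes, 732 were higher with the covariate and 692 in the 13 libraries. Those lower were 599 with the covariate and slightly more in the 13 libraries. Whether the members' counts differ from the share of all genes was not tested.

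Sf3b6 had the smallest p-value. Its normalized count was between 421 and 543 (median 501) in the Inactive and between 401 and 469 (median 436) in the Activity Reduction group, with between 402 and 506 (median 441) in the Active group. Apart from 1 Inactive mouse at 421, the Inactive values lay above all those of the Activity Reduction group. The log2 fold change was -0.20 (SE 0.059, edgeR p = 0.0025, adjusted p = 0.35), the two-sided exact permutation p was 0.0035, and the value was -0.20 with the liver covariate and -0.18 in the 13 libraries.

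Prpf3, a tri-snRNP protein bound to U4/U6, was between 663 and 772 (median 723) in the Inactive and between 565 and 744 (median 637) in the Activity Reduction group. The difference was a log2 fold change of -0.16 (SE 0.063, adjusted p = 0.55), and 5 of the 7 Activity Reduction mice lay under every Inactive mouse. Hnrnpa0, a member of the A/B group with a single-exon gene, was between 1546 and 2130 (median 1934) in the Inactive and between 1898 and 2654 (median 2157) in the Activity Reduction group. This was the largest estimate of any member in the 3 comparisons, with a log2 fold change of 0.22 (SE 0.090, adjusted p = 0.55), and the groups overlapped between 1898 and 2130. Hnrnpr, a relative of the RNA-binding protein SYNCRIP, had a log2 fold change of -0.12 (SE 0.053, adjusted p = 0.64) and was between 1251 and 1644 in the Activity Reduction and between 1550 and 1738 in the Inactive group.

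The other members named by their p-values had estimates of 0.12 for Sf3b3 (SE 0.059), -0.066 for Hnrnph2 (SE 0.034), 0.073 for Prpf19 (SE 0.040) and 0.058 for Hnrnpul1 (SE 0.034), with adjusted p-values between 0.68 and 0.73 in edgeR. Hnrnpul1 takes part in the response to DNA breaks as well as binding RNA. For Hnrnph2 the two-sided exact permutation test over the 14 mice gave p = 0.0012 and the model an unadjusted p-value of 0.065, and 1 Activity Reduction mouse lay above the lowest Inactive mouse.

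**Figure D3:**
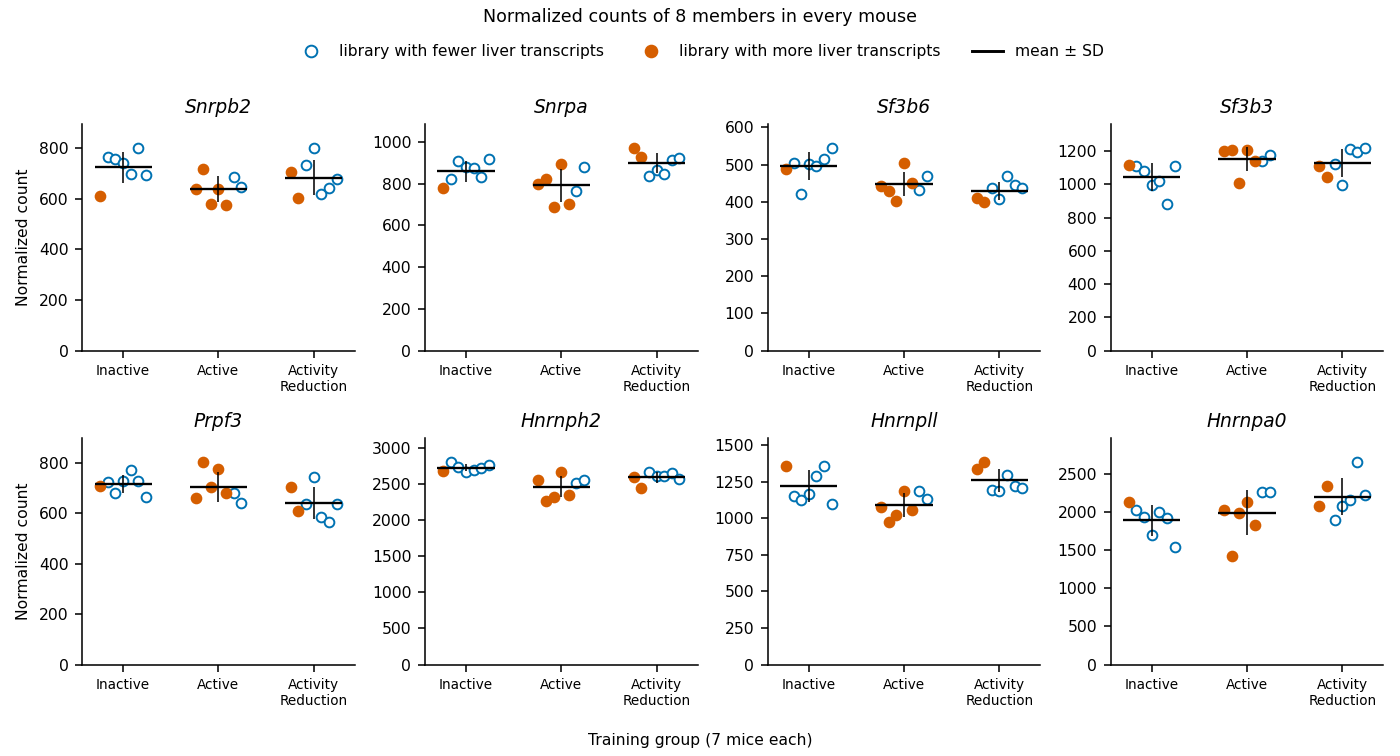
Normalized counts of 8 members in each of the 21 mice, on axes that start at 0, with the mean and SD (n = 7) of each group; filled points are the libraries with more liver transcripts. The groups overlap in every panel, and Hnrnph2 is between 2659 and 2796 in the Inactive mice and down to 2268 in the Active mice.

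The comparison of the Activity Reduction with the Active group asks what 2 weeks without running changed in trained muscle. Members tended to slightly higher values in the Activity Reduction group, with 16 of 62 below 0 (50.2% of all genes) and a median log2 fold change of 0.035 against -0.00065 over all genes. At an unadjusted p-value under 0.05, 1 was lower (6.44%) and 6 were higher (6.89%). All 10 Snrp genes were above 0, from 0.020 (Snrpg) to 0.18 (Snrpa) with a median of 0.097, and so were 17 of 20 Hnrnp genes, with a median of 0.048. The medians were 0.016 for Sf3, 0.014 for Prpf and -0.014 for Srsf, of which 6 of 10 were below 0. The Active mice are those of the first comparison, so that these values are not separate evidence of it.

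The fibroblast and tendon markers had a median of 238 CPM (210 to 284) in the Activity Reduction and 343 CPM (266 to 438) in the Active group, and the macrophage markers one of 35.7 against 55.7 CPM. All but 1 of the Active libraries were also less deep than every Activity Reduction library, and the part of these in the members' values was not tested. With the liver covariate, 20 members were below 0, and 9 Snrp genes (median 0.069) and 17 Hnrnp genes (median 0.043) were above 0. Within the 13 libraries the numbers were 18 members below 0, with 8 Snrp genes (median 0.067) and 15 Hnrnp genes (median 0.032) above 0. The 6 members that were higher at an unadjusted p-value under 0.05 were then 3 and 0, and the 1 that was lower was then 0 in both. Of all 16129 genes, 1038 were lower and 1111 higher as reported, 836 and 894 with the covariate, and fewer again in the 13 libraries. The fall was therefore not particular to the members, and whether it differed in size was not tested.

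Hnrnpll stood first, with between 972 and 1188 (median 1079) in the Active and between 1188 and 1381 (median 1218) in the Activity Reduction group. The ranges met at 1188, where the highest Active and the lowest Activity Reduction mouse lay, with little overlap. The log2 fold change was 0.21 (SE 0.059, edgeR p = 0.0022, adjusted p = 0.15), the two-sided exact permutation p was 0.0012, and DESeq2 gave an adjusted p-value of 0.059 on the 3 groups and of 0.041 on the 2 groups compared, at a log2 fold change of 0.21, under that asked of a call. It was 0.23 with the liver covariate but 0.066 in the 13 libraries, which hold 2 Active mice.

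Snrpa, the U1 protein that binds a stem-loop of the U1 RNA, was between 688 and 895 (median 800) in the Active and between 838 and 970 (median 913) in the Activity Reduction group. The log2 fold change was 0.18 (SE 0.059, adjusted p = 0.19), with 0.089 in the 13 libraries, and 2 Active mice lay among those of the Activity Reduction group. Snrpb, which encodes the SmB and SmB' proteins, was between 5550 and 6259 (median 5724) in the Active and between 5797 and 7404 (median 6328) in the Activity Reduction group, with a log2 fold change of 0.13 (SE 0.051, adjusted p = 0.27). Its imprinted relative Snrpn, known for the brain, had at most 6 counts in a library. However, 32.7% of the Snrpn transcript is overlapped on the same strand by Gm38393, Snord107 and Snurf together. Whether reads were assigned there was not tested.

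Sf3b5, a small SF3B subunit, varied most in the Activity Reduction group, between 753 and 1235 (median 942), against 798 to 981 (median 832) in the Active group. Its log2 fold change was 0.20 (SE 0.082, adjusted p = 0.30) and it was 0.26 with the liver covariate. Prpf19 had a log2 fold change of 0.091 (SE 0.040, adjusted p = 0.33) and Hnrnph2 one of 0.072 (SE 0.034, adjusted p = 0.36). Below 0 were Prpf3 with -0.14 (SE 0.063, adjusted p = 0.34) and Srsf3, a small SR protein that also serves mRNA export, with -0.097 (SE 0.047, adjusted p = 0.38) in edgeR's test.

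The 62 members together made up between 3924 and 4277 CPM (median 4153) in the Inactive, between 3860 and 4375 (median 4063) in the Active and between 3861 and 4276 (median 4037) in the Activity Reduction group. The Hnrnp genes accounted for most of this, with 2229 ± 89.0 CPM (SD, n = 7) in the Inactive, 2174 ± 123 in the Active and 2203 ± 101 in the Activity Reduction group. Snrp genes summed to 307.6 ± 10.9 CPM, 291.3 ± 16.5 and 306.97 ± 14.9 in the same order. The Active Snrp sums were between 273.3 and 323.7, with a median of 287.4, and overlapped the Inactive ones, which were between 289.9 and 319.2.

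The groups overlapped in the other families as well. Sf3 genes summed to 321.8 ± 15.5 CPM in the Inactive, 316.4 ± 16.1 in the Active and 315.8 ± 19.3 in the Activity Reduction group (SD, n = 7 each). For Prpf genes the sums were 680 ± 16.1, 664 ± 12.6 and 659 ± 28.9 CPM, and for Srsf genes 611 ± 22.6, 618 ± 29.2 and 595 ± 32.0 CPM.

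**Figure D4:**
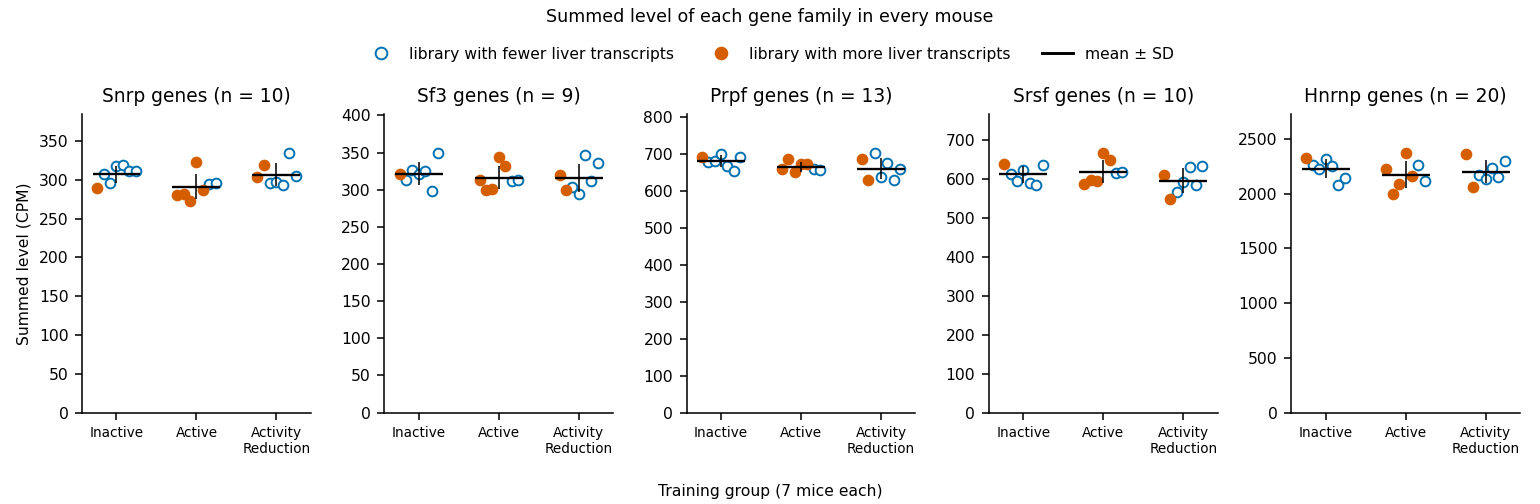
Summed CPM of each gene family in each mouse, on axes that start at 0, with the mean and SD (n = 7) of each group; filled points are the libraries with more liver transcripts. The groups overlap in all 5 families, and the 4 lowest Snrp sums are Active mice with more liver transcripts.

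Genes of the same machinery under other names were described in the same way, but without the liver settings. Liver transcripts and depth differ between the groups for these genes too, and their part in the values was not tested. Of 125 such genes tested, in 7 lists of core particles, kinases and muscle regulators, 0 were called by edgeR in any comparison. In Active against Inactive 87 were below 0, with a median of -0.029, and 13 were lower and 3 higher at an unadjusted p-value under 0.05. Over all genes 48.4% were below 0, 4.69% lower and 6.18% higher. In Activity Reduction against Inactive 59 were below 0, with 5 lower and 6 higher, where 47.8%, 3.54% and 4.19% of all genes were. Of the same genes, 34 in Activity Reduction against Active were below 0, with a median of 0.041 and with 3 lower and 17 higher, where 50.2%, 6.44% and 6.89% of all genes were.

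By list, the proteins of the tri-snRNP and of the catalytic steps were below 0 in 22 of 25 genes in Active against Inactive, with a median of -0.068 and 5 lower at an unadjusted p-value under 0.05. The other medians there were -0.070 for 8 LSM genes, most of which encode the ring on U6, and -0.058 for 8 genes of the minor spliceosome. They were -0.015 for 18 genes of U1 and U2 recognition and -0.015 for 30 muscle splicing regulators. For 13 exon junction and export genes the median was -0.013, and for 23 SR-related genes and kinases -0.0099. In Activity Reduction against Active the medians were 0.052, 0.055, 0.057, 0.043, 0.011, 0.035 and 0.027 in the same order. In Activity Reduction against Inactive they lay between -0.037 (LSM) and 0.021 (U1 and U2 recognition).

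Eftud2, the GTPase of the U5 particle, had the smallest p-value of these genes in Active against Inactive. It was between 1521 and 1652 (median 1598) in the Inactive and between 1289 and 1581 (median 1415) in the Active group, a log2 fold change of -0.15 (SE 0.041, adjusted p = 0.19). Celf2, a CUG-binding regulator of muscle exons, followed with -0.16 (SE 0.046, adjusted p = 0.23) and Bud13, of the RES complex, with -0.25 (SE 0.072, adjusted p = 0.23). Rbm38, an RNA-binding protein of muscle differentiation, had the smallest p-values in both comparisons with the Activity Reduction group. It was between 6713 and 7422 (median 7226) in the Inactive, between 7112 and 8202 (median 7355) in the Active and between 7326 and 10174 (median 8184) in the Activity Reduction group. The log2 fold change was 0.27 (SE 0.056, adjusted p = 0.14) compared to the Inactive and 0.20 (SE 0.056, adjusted p = 0.14) compared to the Active group in edgeR's test.

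After Rbm38, the genes were Khdrbs3, a STAR family regulator, with -0.23 (SE 0.078, adjusted p = 0.45) and Rnps1, a cofactor of exon junctions, with 0.11 (SE 0.041, adjusted p = 0.50) in Activity Reduction against Inactive. Against Active they were Clk4, a kinase of SR proteins, with 0.17 (SE 0.054, adjusted p = 0.18) and Zcrb1, of the minor spliceosome, with 0.13 (SE 0.042, adjusted p = 0.18) in edgeR's test.

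Counts per gene do not tell the transcripts of a gene apart. Many splicing factors are known to limit their own level by splicing to a transcript that is removed by nonsense-mediated decay. In GENCODE M39, 51 of the 62 members (82.3%) have at least 1 transcript annotated for that decay, against 73.5% of 13651 tested protein-coding genes. All 10 Srsf genes have such transcripts, with a median of 24 a gene and 55 for Srsf5, of 97 transcripts annotated for that gene. The median was 9 for Prpf, 5 for Sf3, 4.5 for Hnrnp and 3 for Snrp genes, and 3 over the tested protein-coding genes. These numbers were not scaled to the number of transcripts annotated per gene. Among the members without any were Hnrnph2, Hnrnpa0, Prpf8, Sf3b5 and Hnrnpm. A change in the share of such transcripts that left the gene's count level would not be seen in these values.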

How the data were processed

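Libraries were poly(A)-selected, with 1 per mouse. In Galaxy, the authors used fastp for trimming, RNA STAR for alignment against GRCm39 and featureCounts for counting, and the deposited values used here are whole read counts per gene, without normalization. Versions, annotation and strand setting are not given in the sources used here. A second deposited table held the same counts and was not used. Library depth was between 38482455 and 59785132 counts.

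Members were matched by symbol, and the members and gene lists were chosen with earlier results of these data known. Counts were fitted in 1 edgeR (version 4.0.16) quasi-likelihood model of the 21 libraries in R 4.3.3, after TMM normalization and filterByExpr (16129 genes), with Benjamini-Hochberg adjustment. The study used DESeq2, which was run as an alternative (version 1.42.0). The fold change threshold of 0.25 was taken on the log2 scale. Normalized counts are counts divided by DESeq2's size factors. Intervals are 95% intervals of the edgeR coefficient. Exact permutation tests were two-sided over 14 mice, with 0.000583 as the smallest p they can give. Each mouse is a separate animal, so p-values set the difference between groups against the spread between animals. Liver transcripts and depth differ between the libraries too and can enter both. The model was tested on simulated counts. Lengths and overlaps were those of GENCODE M39 canonical transcripts (GRCm39), and copies were found with blastn 2.17.0+ at 95% identity over 50% of the transcript.

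Named members were the 8 with the smallest p-value in each comparison, the 2 highest and the lowest per kb of each family, any called, and Snrpn and Snrpb; of the other lists, the 3 genes with the smallest p-value in each comparison were named. Other genes named beside a count, such as those without decay transcripts, were chosen after their values were seen. Alternatives were another tool, samples, scaling, filter, liver division and replicate block. Values of 1 Prpf gene are not reported here on their own, and it is left out of the plots of single genes but enters the counts and medians.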

Additional observations from a re-analysis of the deposited data

Results flagged for a closer look

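Of 102 sets of values tested, which were the named members' normalized counts and the families' summed CPM in each group of 7 mice, 6 held a mouse far from the others of its group by Dixon's criterion, which chance gives in about 1 of 20 sets. In the Inactive group, replicate 4 had the highest Hnrnpr, with a normalized count of 1738 where the next mouse had 1620, and the highest Srsf3, with 2879 against 2659. Replicate 7 of the Inactive group had the highest Sf3b1, with 6983 against 5982, and the highest Srsf5, with 10186 against 8754. In the Active group, replicate 2 had the highest Hnrnpul1, with 3960 against 3711, and replicate 3 the lowest Sf3b3, with 1006 against 1139.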

How the results depend on the processing

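In every setting 0 members were called, and the 8 members with the smallest p-values of each comparison kept their direction. Of all 62 members, whose estimates are mostly near 0, 12 changed sign with the liver covariate and 19 in the libraries with fewer liver transcripts in Active against Inactive, 1 and 2 in Activity Reduction against Inactive, and 6 and 12 in Activity Reduction against Active. In Active against Inactive, Prpf19 and Srsf5 were among those that changed in both. Of the settings compared for the summaries, 226 values stayed within 1.5 times the reported count or the spread, and 14 moved. With the liver division as a covariate, Active against Inactive gave 2 members lower (5 as reported) and 2 higher (1) at an unadjusted p-value under 0.05, and Activity Reduction against Active gave 0 lower (1) and 3 higher (6). In the libraries with fewer liver transcripts these were 2 lower in Active against Inactive, 4 higher in Activity Reduction against Inactive (1), and 0 lower and 0 higher in Activity Reduction against Active, and the median of the Hnrnp genes in Active against Inactive was -2.83e-05. These libraries include 2 Active mice, so fewer samples enter. In the comparisons with the Active group the numbers over all genes fell there as well. In Activity Reduction against Inactive the numbers over all genes rose slightly there. In Activity Reduction against Active, the members lower were also 0 with edgeR or DESeq2 on the 2 groups compared, and 2 without a filter on low counts, and those higher were 3 with edgeR on the 2 groups; the cause was not tested. Replicate numbers gave 21 pairs of libraries between groups, of which 7 had a correlation of deviations over 0.1. In 4 of the pairs, a library correlated best with the one of its own number. The pairs of replicate 1 were among these, with correlations of 0.29, 0.47 and 0.33. The labels name no pairing of the mice, and weak correlations cannot exclude one. With a replicate block, 6 members were lower in Active against Inactive and 2 in Activity Reduction against Active. The family medians and counts below 0 under other settings were added after seeing the data.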

Other observations

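The division by liver transcripts was made from the data, follows the order of the samples and is not a group of the study. Between the 8 libraries with more and 13 with fewer, 37 of 62 members had a log2 difference below 0, with a median of -0.017. Of all 16129 genes, 8361 were below 0, with a median of -0.0043. Srsf11, an SR-related protein, was 0.16 lower on the log2 scale in the former (log2 difference -0.16, adjusted p = 0.037 by edgeR), and Snrpg differed by -0.38 (adjusted p = 0.052), while 66 of 16129 genes were lower and 673 higher at an adjusted p-value under 0.05. Across genes, which are not independent replicates, Spearman's correlation of log2 fold change with the length of the canonical transcript was 0.245 over the 62 members in Active against Inactive, -0.119 in Activity Reduction against Inactive and -0.349 in Activity Reduction against Active. Over 14948 tested genes it was 0.0536, -0.0903 and -0.117.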
